A study of Homo sapiens with 7 samples.

Results

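Olfactory receptor genes encode the receptors for airborne odorants. They are G protein-coupled receptors, they form the largest gene family in mammals, and they sit in clusters spread over many chromosomes. Each olfactory sensory neuron transcribes a single receptor allele, and in other cell types the clusters are mostly silent and packed as heterochromatin. Silent, gene-family-rich and AT-rich chromosome domains commonly replicate late in S phase, whereas active, gene-dense domains replicate early. Class I receptors are the older, fish-like branch and lie together on the short arm of chromosome 11, around the beta globin genes. Class II receptors make up the rest.

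Members were chosen by name alone: autosomal probes whose gene name in the deposited tables was OR, digits, 1 or 2 letters and digits. This gave 51 genes with 107 probes, of 24270 named autosomal genes and 165640 autosomal probes. The larger array design held 50 of them with 105 probes, and 42 of these genes had 1 probe. The array labelled 44k held 29 of the genes with 39 probes, and OR51B5 was on that array alone. No member lay on chromosome 8. The genes form 23 clusters when neighbours under 500 kb apart are joined. Of these, 11 clusters hold 2 or more genes and 39 of the genes, and 12 are single genes.

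The series compared newly made DNA of early and of late S phase on 7 two-colour arrays of 2 established human cell lines. K562 is a chronic myeloid leukaemia line with erythroid features, and U2OS is an osteosarcoma line. In all groups the cells took up bromodeoxyuridine (BrdU, 50 µM, 2 h), 80000 cells were sorted by DNA content into an early and a late fraction, and the BrdU-carrying DNA was captured with an antibody, put through whole genome amplification and given the dye Cy3 (early) or Cy5 (late). K562 was measured after a new cell sorting method (n = 1), after an old one (n = 1), both on the design of 180880 features, and on an array titled 44k with 62976 features (n = 1). U2OS was measured as manual (n = 2) and automated (n = 2), all on the design of 180880 features. Which step the words manual and automated refer to is not given in the titles. No label says that arrays came from separate cultures, so p-values measure the spread between these arrays, which may be technical. Each line is 1 cell line in 1 laboratory's culture, and no array had its dyes swapped.

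A timing level here is log2(early/late) of a gene's probes, relative to the median probe of the array on chromosomes 1 to 22 and X. A positive level is earlier than that median and a negative level later. Signal over background limited the precision. The share of receptor probes well above background in the late channel was 72.4% and 84.8% on the new-sorting and old-sorting K562 arrays, 68.6% and 61.9% on the manual U2OS arrays, 97.1% and 99.0% on the automated U2OS arrays, and 13.9% on the array labelled 44k. In the early channel it was 87.6% and 45.7% on the new-sorting and old-sorting K562 arrays. On the manual U2OS arrays it was 68.6% and 61.0%, on the automated ones 88.6% and 79.0%, and on the array labelled 44k 97.2%. On that last array the scanner software had replaced the late signal by a surrogate at 52.8% of receptor probes and at 49.5% of all autosomal probes. There OR10H1, OR1E2, OR1G1 and OR51B4 have a deposited log ratio of exactly 0, which enters the fit as -0.46 after centring and is not a measurement.

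The probes below stand for the patterns that follow. OR8K5 was late in both lines, OR6A2 and OR7A5 were early in both, OR2B3 was earlier in K562, OR5P3 was later in K562, and OR52A1 lies beside the beta globin genes. They are printed as the deposited tables give them, with hg19 positions, and the tables give no strand. Capitals mark CG dinucleotides.
OR8K5, chr11:55927128-55927187: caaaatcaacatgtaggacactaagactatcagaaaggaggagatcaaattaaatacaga
OR6A2, chr11:6816134-6816185: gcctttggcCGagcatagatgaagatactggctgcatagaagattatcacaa
OR7A5, chr19:14937460-14937519: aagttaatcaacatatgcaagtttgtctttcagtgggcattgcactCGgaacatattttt
OR2B3, chr6:29055015-29055074: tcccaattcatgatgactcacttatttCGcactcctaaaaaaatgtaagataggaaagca
OR5P3, chr11:7846994-7847049: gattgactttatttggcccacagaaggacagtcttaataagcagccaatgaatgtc
OR52A1, chr11:5173297-5173356: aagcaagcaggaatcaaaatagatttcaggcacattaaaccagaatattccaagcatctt

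Receptor probes were as AT-rich as the rest of the design. Their median GC content was 36.7%, and that of all autosomal probes was 36.7%. No CG occurred in 74 of the 107 receptor probes (69.2%), against 65.9% of all autosomal probes. The promoters of the genes differed from other promoters. RefSeq windows from 250 bases before to 50 after the gene start (GRCh38.p14) were available for 36 members, and held a median of 40.7% GC and 2 CG, against 58.7% GC and 14 CG over all 35116 promoters of that table. OR2L13 had the promoter with the most CG, 24. Over 50 genes, the probes' GC content and the U2OS level had a Pearson r of 0.41 (Spearman 0.32), and the K562 level an r of 0.07 (Spearman 0.01). With the promoters' GC content, over 36 genes, r was -0.02 for U2OS and -0.11 for K562. These run across genes that share arrays and domains and are a description. Whether a probe also binds related receptor copies was not tested.

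The median level of the receptor genes lay below that of all genes in both lines, with a wider gap in U2OS. The median level of the receptor genes was 0.30 ± 0.10 in K562 (SD over 3 arrays; 0.054 to 0.49 under alternatives that keep genes of 1 probe, -0.16 over the 8 genes with at least 2 probes) and -0.43 ± 0.31 in U2OS (SD over 4 arrays). The medians over all named autosomal genes were 0.61 ± 0.24 and 0.76 ± 0.06. By array, the receptor median was between 0.20 and 0.39 in K562 and between -0.81 and -0.16 in U2OS, so the medians of the lines did not overlap. On each of the 4 U2OS arrays between 54% and 72% of the receptor genes were below 0, against 30.9% to 32.2% of all genes. On the K562 arrays the shares were 32% to 46.4% of receptor genes and 30.1% to 36.1% of all genes.

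A gene was called late or early in a line when its mean differed from 0 with an adjusted p under 0.05 (limma, Benjamini-Hochberg over 23745 genes). In U2OS, 22 of the 50 receptor genes in the fit were called late, against 19.8% of all genes, and 11 were called early, against 56% of all genes. In K562, 9 of 50 were called late, against 19.8% of all genes, which is near the background, and 13 were called early, against 44.6% of all genes. Below 0 on every array were 6 receptor genes (14.5% of all genes), and above 0 on every array were 6 (41.2% of all genes). The shares of all genes, here and below, were not matched for the number of probes or arrays. At least 2 probes were held by 8 of the 50 receptor genes, against 15179 of all 23745 genes. A probe on all 7 arrays was held by 28 receptor genes, against 18310 of all genes. How far this lowered or raised the counts of receptor genes was not tested.

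**Figure D1:**
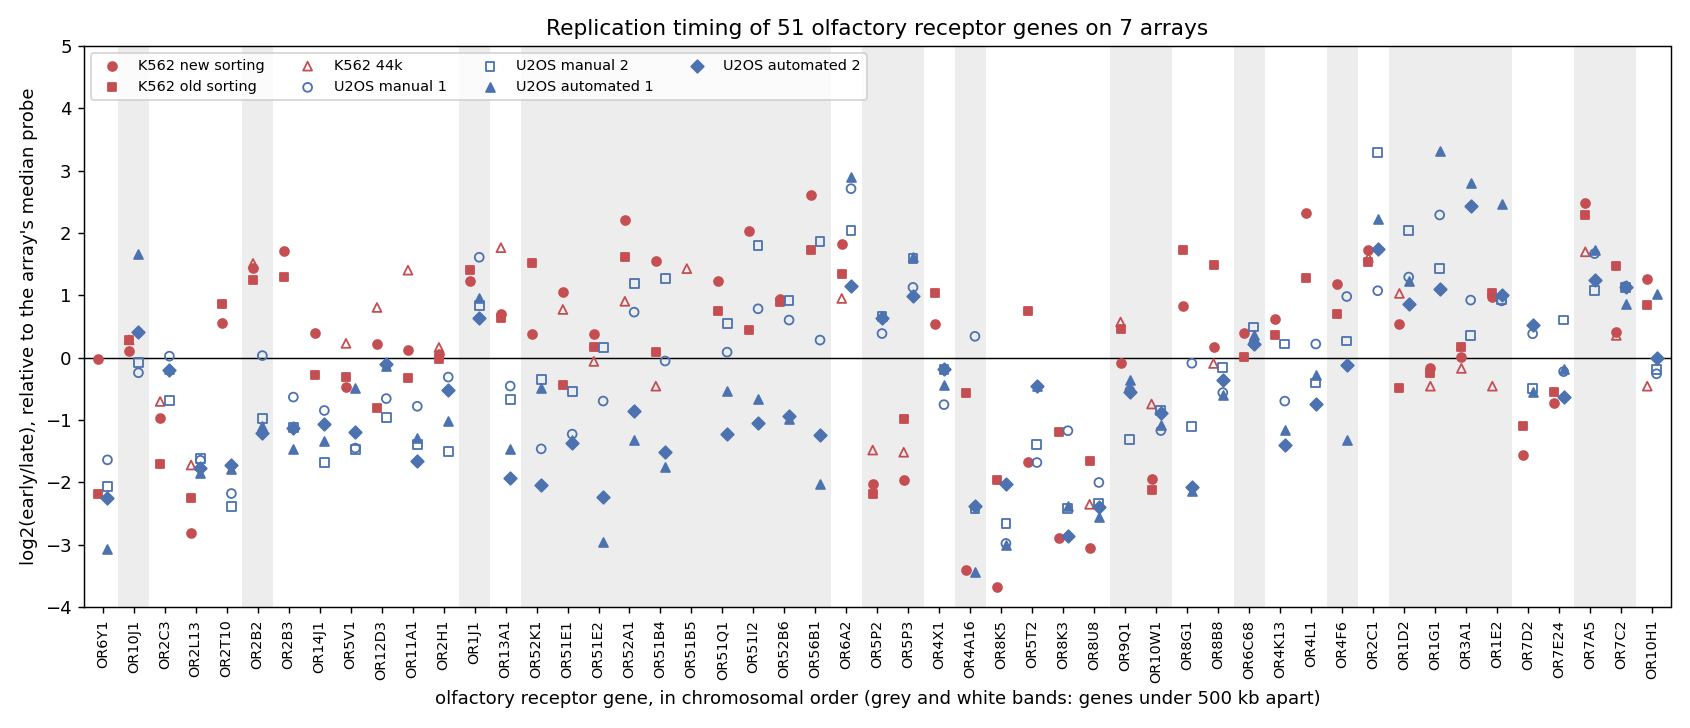
Timing level (y axis, log2) of each olfactory receptor gene (x axis, chromosomal order) on each array, with K562 in red and U2OS in blue. The genes from OR8K5 to OR8U8 lie low in both lines, OR5P2 and OR5P3 are low in K562 alone, and the automated U2OS arrays lie below the manual ones from OR51E2 to OR56B1.

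Receptor genes did not share 1 timing state. Late in both lines were 5 genes (12.7% of all genes): OR10W1, OR2L13, OR8K3, OR8K5 and OR8U8. Early in both were 5 (36.0% of all genes): OR1J1, OR2C1, OR6A2, OR7A5 and OR7C2. Early in K562 and late in U2OS were 4, OR13A1, OR2B2, OR2B3 and OR8G1 (2.08% of all genes). Late in K562 and early in U2OS were 2, OR5P2 and OR5P3 (2.23% of all genes). A further 13 genes were called late in U2OS alone, 2 late in K562 alone, 4 early in K562 alone and 4 early in U2OS alone, and 11 were called in neither line. For these last states the shares of all genes were not computed, so their counts only describe the members.

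The latest receptor genes lay on the long arm of chromosome 11, near the centromere. OR8K5 (1 probe) had levels of -3.68 and -1.97 on the new-sorting and old-sorting K562 arrays, and of -2.98, -2.66, -3.01 and -2.03 on manual 1, manual 2, automated 1 and automated 2 of U2OS. All 6 values are far below 0 and the lines overlap. OR8U8 was the best measured member, with 29 probes over 362 kb. Its levels were -3.05, -1.65 and -2.35 on the new-sorting, old-sorting and 44k K562 arrays, the last from 2 of its probes, and -2.0, -2.35, -2.55 and -2.39 on the U2OS arrays in the order above. Each of its 29 probes was below 0 in the mean of the 2 larger K562 arrays and in the mean of the U2OS arrays, with an SD among probes of 0.63 and 0.73. OR8K3 had means of -2.05 ± 1.20 (n = 2) in K562 and -2.21 ± 0.73 (n = 4) in U2OS. The fitted differences between lines of these 3 genes, in the order OR8K5, OR8U8 and OR8K3, were -0.16 ± 0.52, -0.03 ± 0.37 and 0.16 ± 0.59 (SE). None was called. On simulated shifts of 200 of 23745 genes, the fit recovered 0% of genes shifted by 1 and 32% of those shifted by 2. In the data 3235 genes were called, which makes the adjusted p less strict than in the simulation. A call also needed an estimate of at least 1. These rates therefore cannot give the power of this fit, and an uncalled difference does not show that the lines are alike.

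Another late member with several probes was OR2L13 on chromosome 1, a class II gene. Its 13 probes over 160 kb averaged -2.54 over the 2 larger K562 arrays and -1.72 over the 4 U2OS arrays, and all 13 were below 0 in both of these means. The array labelled 44k held 4 of them. OR9Q1 on chromosome 11, with 11 probes over 139 kb, was not uniform along its length in K562. There the first 5 probes averaged 0.66 and the last 5 averaged -0.30, while in U2OS they averaged -0.52 and -0.89. The gene named next to it, OR10W1, had -1.61 ± 0.75 (n = 3) in K562 and -1.0 ± 0.15 (n = 4) in U2OS, and was called late in both.

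The 3 earliest receptor genes by the mean of both lines were OR2C1, OR7A5 and OR6A2. OR2C1 on chromosome 16 had levels of 1.73, 1.53 and 1.60 on the new-sorting, old-sorting and 44k K562 arrays, and of 1.07, 3.28, 2.23 and 1.74 on the U2OS arrays. Every value is above 1, and U2OS spreads more widely than K562. OR6A2 on chromosome 11 had 1.82, 1.34 and 0.95 in K562 and 2.71, 2.04, 2.90 and 1.16 in U2OS. OR7A5 on chromosome 19 had 2.47, 2.29 and 1.70 in K562 and 1.67, 1.08, 1.73 and 1.24 in U2OS. These early genes rest on 1 probe each. The mean of all 10 probes within 50 kb of OR2C1 was 1.45 in K562 and 1.58 in U2OS, that of 8 probes around OR7A5 was 1.40 and 1.11, and that of 8 probes around OR6A2 was 1.33 and 0.84.

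Single probes did not always stand for their surroundings. OR10J1 on chromosome 1 had a mean of 0.22 ± 0.10 (n = 3) in K562, while the 8 probes within 50 kb of it averaged -1.80 there. This gene was singled out after its values were seen. With all probes within 50 kb of each gene in place of its own, 14 of 51 receptor genes were called late in K562 (22.8% of all genes under that setting) and 23 early (59.5%). In U2OS, 26 were called late (22.8%) and 13 early (64.3%).

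The comparison of K562 with U2OS asked which receptor genes the 2 lines replicate at different times. A call needed an adjusted p under 0.05 (limma) together with a difference of 1 or more. Of 50 receptor genes, 9 were earlier in K562, against 6.26% of all genes, and 3 were later in K562, against 7.36% of all genes. The 12 that differed compare with 13.6% of all genes. The median fitted difference was 0.81 for receptor genes and -0.16 for all genes. For receptor genes it was 0.25 with normexp background correction at an offset of 50, and 0.19 over the genes with a probe on all 7 arrays. Without the new-sorting K562 array, 5 receptor genes were earlier in K562 in place of 9, and 8 in place of 13 were called early in K562. No share of all genes is given for that setting. The K562 arrays lay all above the U2OS arrays for 17 receptor genes (12% of all genes) and all below for 6 (15.4% of all genes). By chance the lines separate more easily where K562 has 2 arrays than where it has 3. All 7 arrays held a probe for 28 of the 50 receptor genes, against 18310 of 23745 genes. The shares of 12% and 15.4% are therefore not a matched background.

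The receptor genes earlier in K562 lay on 5 chromosomes. OR2T10 (chromosome 1) had levels of 0.55 and 0.86 on the new-sorting and old-sorting K562 arrays, and -2.18, -2.39, -1.79 and -1.72 on the U2OS arrays. The lines are far apart, with a difference of 2.73 ± 0.37 (SE; adjusted p = 0.0016, limma). The 6 probes within 50 kb of it averaged 0.84 in K562 and -1.64 in U2OS. In the same cluster OR2L13 was late in both lines. After normexp with an offset of 50 and loess, the OR2T10 difference was 1.11 with an adjusted p of 0.0525.

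OR2B2 and OR2B3 lie on chromosome 6 beside the major histocompatibility complex. OR2B3 had 1.71 and 1.29 in K562 and -0.63, -1.12, -1.47 and -1.13 in U2OS, a difference of 2.59 ± 0.38 (adjusted p = 0.00228). OR2B2 had 1.44, 1.24 and 1.51 in K562 and 0.03, -0.98, -1.11 and -1.21 in U2OS, a difference of 2.22 ± 0.36 (adjusted p = 0.00307). For both genes the lines do not overlap. Further along the chromosome 6 cluster the K562 level was near 0: OR14J1, OR5V1, OR12D3 and OR2H1 had K562 means between -0.18 and 0.07, and of the genes after OR2B3 the test was passed by OR11A1 (0.40 ± 0.90 in K562, n = 3), with a difference of 1.68 ± 0.43 (adjusted p = 0.0275).

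OR8G1 on chromosome 11 had 0.83 and 1.73 in K562 and -0.09, -1.10, -2.13 and -2.08 in U2OS, a difference of 2.63 ± 0.60 (adjusted p = 0.0182). Without the old-sorting K562 array the difference was 2.18 and its adjusted p was 0.124. OR13A1 on chromosome 10 had 0.70, 0.64 and 1.76 in K562 and -0.46, -0.68, -1.47 and -1.93 in U2OS, a difference of 2.17 ± 0.45 (adjusted p = 0.00916). OR4L1 on chromosome 14 had 2.33 and 1.28 in K562 and 0.22, -0.41, -0.29 and -0.75 in U2OS, a difference of 2.11 ± 0.43 (adjusted p = 0.0112). Without the new-sorting K562 array it was 1.59 with an adjusted p of 0.0849. The other 2 called earlier in K562 were OR52K1 (2.04 ± 0.56) and OR51E1 (1.58 ± 0.41), both class I genes.

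The receptor genes later in K562 were the neighbours OR5P2 and OR5P3, and OR1G1. The first pair lies on the short arm of chromosome 11, beyond the class I cluster. OR5P3 had -1.97, -0.98 and -1.52 on the new-sorting, old-sorting and 44k K562 arrays, and 1.13, 1.59, 1.62 and 0.98 on the U2OS arrays. The difference was -2.82 ± 0.35 (adjusted p = 0.000887, limma). OR5P2 had -2.02, -2.19 and -1.48 in K562 and 0.39, 0.67, 0.66 and 0.63 in U2OS, a difference of -2.49 ± 0.30 (adjusted p = 0.000887). The 9 probes within 50 kb of OR5P3 averaged -1.85 in K562 and 0.83 in U2OS. EIF3F, a translation initiation factor gene within 500 kb of them, had -2.17 ± 0.57 (n = 3) in K562 and 0.97 ± 0.34 (n = 4) in U2OS.

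OR1G1 on chromosome 17 had -0.17 and -0.25 on the larger K562 arrays and 2.29, 1.43, 3.32 and 1.1 in U2OS, a difference of -2.33 ± 0.49 (adjusted p = 0.0107). Its value on the array labelled 44k is one of the log ratios of exactly 0. With normexp background correction at an offset of 50 the difference was -0.95, under the minimum of 1. The other genes of that cluster had K562 minus U2OS differences of -0.99 (OR1D2), -1.63 (OR3A1) and -0.81 (OR1E2), none of which passed the test.

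Of the 23 clusters, 6 were below 0 in both lines, 8 above 0 in both, 8 above 0 in K562 and below 0 in U2OS, and 1 the reverse. On every array with a value 4 clusters were below 0, 3 of them on all 7 arrays, and 5 were above 0. An exact two-sided permutation test of 3 against 4 arrays allows no p below 0.0571. Clusters without a value on the array labelled 44k were tested 2 against 4, which allows no p below 0.133. For 7 clusters the permutation test of 3 against 4 gave 0.0571, 5 of them with K562 higher. The smallest Benjamini-Hochberg adjusted p over the 23 clusters was 0.188, so no cluster passed.

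**Figure D2:**
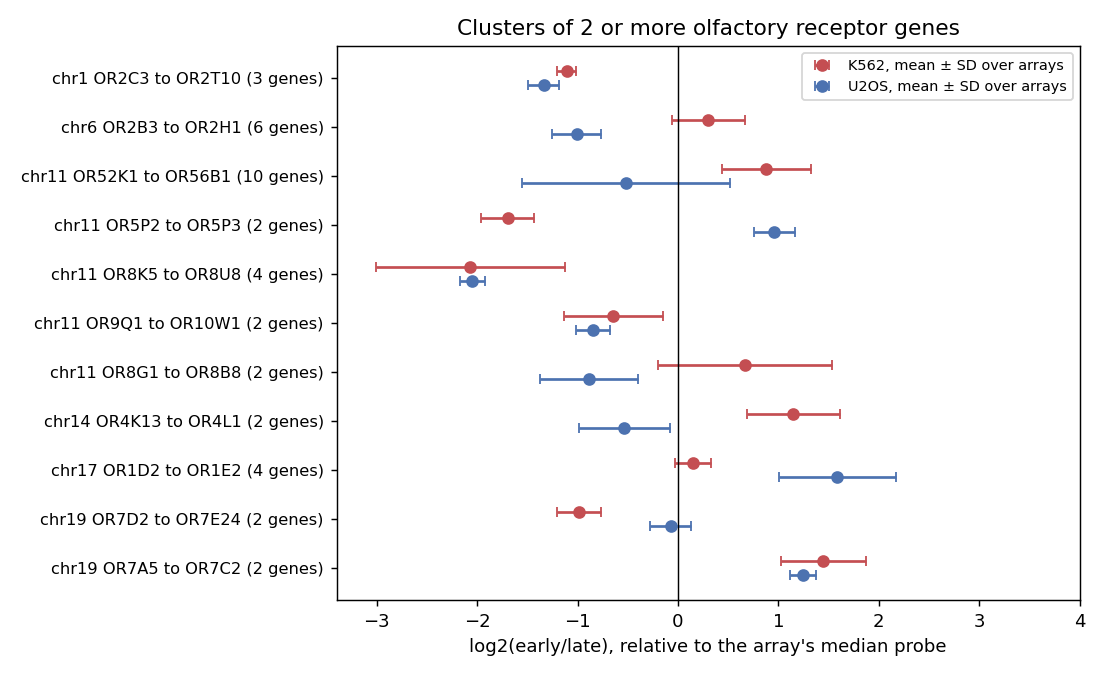
Mean timing level (x axis, log2) of the 11 clusters of 2 or more olfactory receptor genes (y axis), with bars for the SD over the arrays of each line. The cluster from OR8K5 to OR8U8 is late in both lines, that from OR7A5 to OR7C2 is early in both, and OR5P2 to OR5P3 lies at -1.69 in K562 and 0.96 in U2OS.

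The cluster from OR8K5 to OR8U8 (chr11:55927128-56506949, 4 genes) averaged -2.07 ± 0.94 (SD, n = 3) in K562 and -2.05 ± 0.13 (n = 4) in U2OS. On the array labelled 44k, OR8U8 alone stands for that cluster. The cluster from OR2C3 to OR2T10 (chr1:247695693-248756274, 3 genes) averaged -1.11 ± 0.09 and -1.34 ± 0.15, and that from OR9Q1 to OR10W1 -0.65 ± 0.49 and -0.84 ± 0.17. At the early end, OR7A5 to OR7C2 (chr19:14937460-15052997, 2 genes) averaged 1.45 ± 0.43 and 1.25 ± 0.13. In these 4 clusters the means of the lines differed by less than 0.25, and genes within them could go opposite ways: the K562 minus U2OS difference was 2.73 for OR2T10, which is not on the array labelled 44k, and -0.87 for OR2C3, and it was 1.0 for OR9Q1 and -0.61 for OR10W1.

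Other clusters stood apart between the lines. The cluster from OR2B3 to OR2H1 (chr6:29055015-29429106, 6 genes) averaged 0.30 ± 0.36 in K562 and -1.01 ± 0.24 in U2OS, and OR8G1 to OR8B8 on chromosome 11 averaged 0.67 ± 0.86 and -0.89 ± 0.49. The array labelled 44k held 4 of the 6 genes of the first, and for the second OR8B8 alone (-0.09). OR4K13 to OR4L1 on chromosome 14 averaged 1.15 ± 0.46 (n = 2) and -0.54 ± 0.45. In the other direction, OR5P2 to OR5P3 (chr11:7817491-7847049) averaged -1.69 ± 0.26 and 0.96 ± 0.20, OR1D2 to OR1E2 (chr17:2995336-3336199, 4 genes) 0.15 ± 0.18 and 1.59 ± 0.58, and OR7D2 to OR7E24 on chromosome 19 -0.99 ± 0.22 (n = 2) and -0.07 ± 0.20. Without its log ratios of exactly 0 on the array labelled 44k (OR1G1 and OR1E2), the K562 mean of the OR1D2 cluster was 0.30 ± 0.16, with the same permutation p of 0.0571. The exact permutation test gave the smallest p it can for the OR2B3, OR8G1, OR5P2 and OR1D2 clusters, for OR2B2 and OR13A1, and for the OR2C3 cluster.

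The class I cluster was the largest, and the arrays of U2OS disagreed on it. It runs from OR52K1 to OR56B1 (chr11:4511057-5757781, 10 genes). All 9 class I genes in the fit were higher in K562 than in U2OS. Their median level was 0.95 in K562 and -0.29 in U2OS, against 0.22 and -0.42 for the 41 class II genes. The cluster averaged 1.37, 0.75 and 0.52 on the new-sorting, old-sorting and 44k K562 arrays, -0.11 and 0.76 on the manual U2OS arrays, and -1.34 and -1.39 on the automated ones. On the array labelled 44k the mean covers 5 of the 10 genes, among them OR51B5, which is on that array alone. Without OR51B4, whose log ratio there is exactly 0, the value on the array labelled 44k was 0.76. The K562 arrays and manual 2 of U2OS overlap, and both automated arrays lie far below.

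All 9 class I genes in the fit were lower on the automated than on the manual arrays of U2OS, for 8 of them with both automated arrays below both manual ones, a pattern shown by 32.2% of all genes. The median automated minus manual difference was -2.05 for class I genes, -0.07 for class II genes and -0.10 for all genes. OR52A1 had 0.73 and 1.19 on the manual pair and -1.32 and -0.86 on the automated pair, a difference of -2.05 (adjusted p = 0.144, limma). OR56B1, at the far end, had 0.28 and 1.86 against -2.04 and -1.25, a difference of -2.71 (adjusted p = 0.151). In both genes the pairs do not overlap. Without a test, 12 receptor genes were at least 1 higher on the manual arrays, against 8.15% of all genes, and 3 at least 1 higher on the automated arrays, against 7.57%. No receptor gene passed the test between automated and manual arrays, and neither did any other gene (0% of all genes). At an unadjusted p under 0.05 there were 15 receptor genes and 4598 of all genes (19.4%).

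The count depended on the setting. With normexp at an offset of 50, 9 receptor genes passed, 6 of them class I, and so did 10.1% of all genes, while at an offset of 0 none of the receptor genes passed. With all probes within 50 kb of each gene, an alternative added after the data were seen, all 10 genes of the cluster passed and 12 receptor genes in all, against 4.71% of all genes. With the same offset and every array scaled to the same spread, none passed. The manual arrays share 1 slide and each automated array had its own, so handling and slide cannot be told apart. The automated arrays also had more receptor probes well above background in the late channel, by the shares above, and the part of this in the difference was not tested.

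The difference was not limited to receptor probes. In 250-kb windows that use all probes, the manual and automated arrays averaged 0.90 and 0.82 at 1000 to 750 kb before the cluster. Windows farther out also differed, with 1.61 and 0.53 at 1250 to 1000 kb before it (3 probes) and 0.52 and 1.08 at 2000 to 1750 kb before it. Nearer, they were apart at 750 to 500 kb before it (0.73 and 0.12), reached -0.94 and -2.58 at 250 to 500 kb into it, and 0.33 and -2.13 in the next window. At 1750 to 2000 kb from its start they averaged 1.11 and 1.06. In K562 the same windows of the cluster lay between 0.22 and 1.38.

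**Figure D3:**
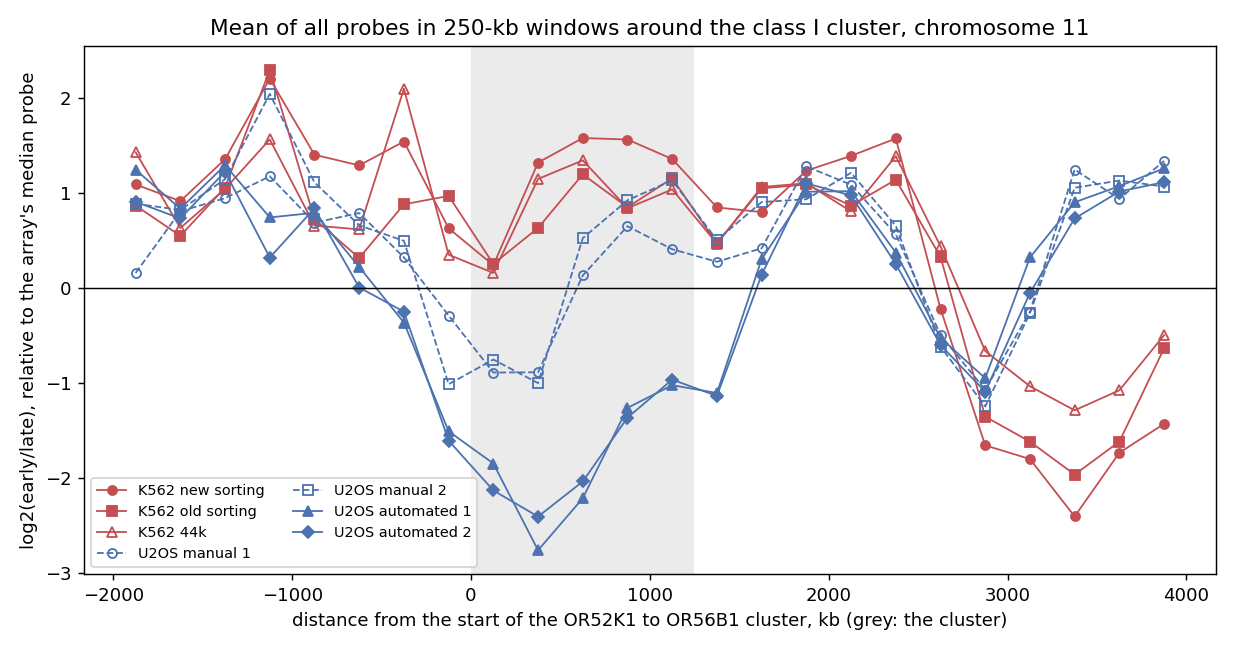
Mean timing level (y axis, log2) of all probes in 250-kb windows against the distance in kb from the start of the class I cluster (x axis, cluster in grey), by array. The automated U2OS arrays average -2.58 at 250 to 500 kb while the K562 arrays are above 0, and from 3250 to 4000 kb from its start, around OR5P2 and OR5P3, the K562 arrays are below 0 and the U2OS arrays above it.

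The beta globin genes, which encode the beta chains of haemoglobin, lie within this cluster between OR52A1 and OR51B4 and also read lower on the automated arrays. HBD (probe at chr11:5254133-5254192) had 1.68, 1.08 and 1.29 on the new-sorting, old-sorting and 44k K562 arrays, -0.15 and 0.45 on the manual U2OS arrays, and -1.63 and -1.26 on the automated ones. Its K562 minus U2OS difference was 2.0 ± 0.49 (adjusted p = 0.022, limma). HBB and HBE1 had differences of 1.54 and 0.84 that did not pass. OR52A1, on one side, had 2.20, 1.61 and 0.90 in K562, with a difference from U2OS of 1.64 ± 0.61 (adjusted p = 0.106). Without manual 2 of U2OS that difference was 2.06 with an adjusted p of 0.0431. OR51B4, on the other side, had 1.55 and 0.09 on the larger K562 arrays and -0.06, 1.26, -1.76 and -1.51 in U2OS, with a difference of 0.91 ± 0.73 (adjusted p = 0.469). OR51B5 read 1.43 on the array labelled 44k, its sole value.

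Genes of other kinds inside the clusters were also mostly below 0 in U2OS, 30 of 34, against 6947 of all 23745 genes. Of these 34 genes, 7 were earlier in K562 (6.26% of all genes), 0 were later (7.36%), and 17 were called late in U2OS (19.8%). Their median was 0.71 in K562 and -0.76 in U2OS. MMP26, a matrix metalloproteinase gene in the class I cluster, had 1.71 ± 0.42 (n = 3) in K562 and -1.0 ± 1.35 (n = 4) in U2OS, a difference of 2.71 ± 0.63 (adjusted p = 0.017). Of the 375 genes in the fit within 500 kb outside a cluster or single receptor gene, 40 were earlier and 24 later in K562, beside the same shares of all genes, and their medians were 0.79 and 0.59.

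Levels rose from inside the clusters to about 1000 kb outside them, though not at every step. The 242 other probes inside the 11 clusters averaged -0.03 ± 0.14 (SD, n = 3) in K562 and -1.03 ± 0.45 (n = 4) in U2OS. In the first 100 kb outside, the averages were 0.04 ± 0.16 and -0.31 ± 0.17. At 400 to 500 kb they were 0.55 ± 0.06 and 0.54 ± 0.06, and at 900 to 1000 kb 0.88 ± 0.14 and 0.89 ± 0.07. Farther out they went up and down, and at 1900 to 2000 kb they were 0.58 ± 0.05 and 0.66 ± 0.05. The lines lay apart inside the clusters, and at 300 to 600 kb they differed by less than 0.05. Inside the clusters the automated U2OS arrays read -1.46 and -1.38 and the manual ones -0.66 and -0.62. These means weigh probes equally, so long clusters count more. The class I cluster was the longest, at 1247 kb, with 18 to 24 probes in each 250-kb window. Its windows averaged -2.58 to -0.99 on the automated arrays and -0.94 to 0.79 on the manual ones. How much of the levels inside comes from this cluster was not tested.

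**Figure D4:**
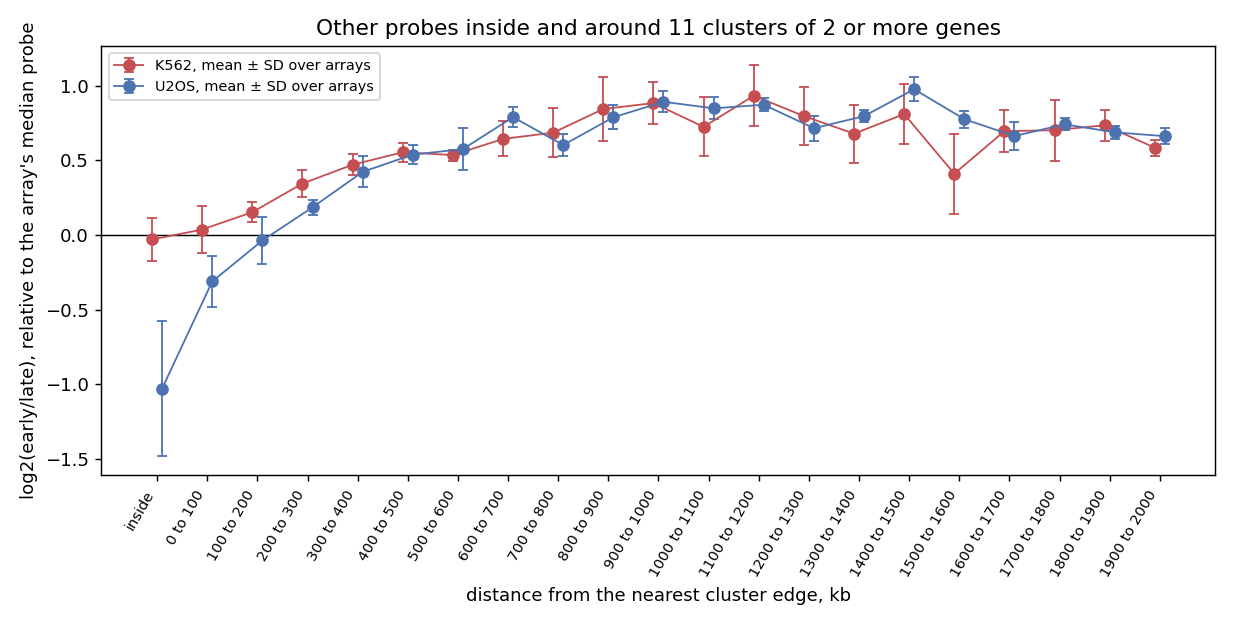
Mean timing level (y axis, log2) of probes of other genes and intergenic probes by distance from the nearest edge of the 11 clusters (x axis, 100-kb steps), with bars for the SD over the arrays of each line. U2OS starts at -1.03 inside the clusters and K562 at -0.03, and both reach 0.5 by 400 to 500 kb.

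Genes that work with the receptors were also measured. Olfactory transduction runs from the receptor through the G protein subunit GNAL and adenylyl cyclase ADCY3 to cyclic nucleotide-gated and chloride channels. Of 14 of its 19 listed genes in the fit, 9 were early in K562 (44.6% of all genes) and 11 in U2OS (56% of all genes), and the median levels were 0.94 and 1.02. ANO2, the chloride channel, was later in K562 by a difference of -1.77 ± 0.29 (adjusted p = 0.00309, limma). STOML3, a stomatin of olfactory cilia, was earlier there by 1.80 ± 0.38 (adjusted p = 0.0106). Of 16 genes for the choice of a receptor, which include LHX2, EBF factors and the heterochromatin factors KDM1A, CBX5 and LBR, 1 differed: EBF2, by -2.05 ± 0.35 (adjusted p = 0.00384). Of 20 trace amine, taste and vomeronasal receptor genes, 0 were earlier in K562 and 2 were later, VN1R1 by -2.93 ± 0.51 (adjusted p = 0.004) and TAAR9 by -1.63 ± 0.46 (adjusted p = 0.0389). Their median levels, -0.33 and -0.02, lay below those of all genes in both lines.

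Single arrays of K562 were set side by side without a test. The new-sorting array minus the old-sorting array had a median of 0.12 over 50 receptor genes and of 0.13 over all genes, with a range from -2.84 (OR4A16) to 2.16. The 2 arrays differed by at least 1 for 15 receptor genes, 7 higher on the new-sorting array (10.9% of all genes) and 8 lower (11.9% of all genes). The array labelled 44k minus the new-sorting array had a median of 0.09 over 28 genes, and of 0.23 over the 24 genes without log ratios of exactly 0. Arrays of the same U2OS handling also differed by at least 1 for 10 genes (manual) and 9 genes (automated) of 50.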

How the data were processed

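The values of all 7 arrays were taken from the deposited scanner tables. The deposited log10 ratio of late over early comes from processed signals that Agilent Feature Extraction 11.5.1.1 had background-subtracted and dye-normalized, per the file headers (the submitters' processing notes name version 9.1), on build hg19. The sign was turned and the value converted to log2, outlier-flagged and control spots were dropped, repeated probes averaged, and each array centred on its median probe. The deposited intensity columns (mean signal and median background per channel, per the file headers) served the normexp alternatives.

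Gene means were fitted with limma 3.58.1 (R 4.3.3) over 23745 genes with a probe on each of the 6 larger arrays. The array labelled 44k entered where it had a probe, so n for K562 is 2 or 3. Names follow a fixed rule: the largest differences, the extremes, the globin neighbours and 8 early genes. Members and lists were chosen with earlier results of these data known. On simulated shifts between K562 and U2OS over 23745 genes, the fit recovered 0% of 200 genes shifted by 1 and 32% of 200 shifted by 2, with 1 false call. Far fewer genes were shifted than the 3235 called in the data, so these rates are not the power of the fit there.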

Additional observations from a re-analysis of the deposited data

Results flagged for a closer look

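In 3 of 30 groups of 4 U2OS arrays, 1 array lay far from the others, where chance gives about 1 in 20. OR5P2 read 0.39 on manual 1, below the other 3 arrays. The cluster from OR2C3 to OR2T10 averaged -1.56 on manual 2, below the others. The cluster from OR1D2 to OR1E2 averaged 2.46 on automated 1, above the others.

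The limma test of K562 minus U2OS passed for 12 receptor genes. The 9 with the largest differences had differences of 2.73 for OR2T10, 2.63 for OR8G1, 2.59 for OR2B3, 2.22 for OR2B2, 2.17 for OR13A1 and 2.11 for OR4L1, with K562 earlier, and -2.82 for OR5P3, -2.49 for OR5P2 and -2.33 for OR1G1, with K562 later. No explanation was tested.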

How the results depend on the processing

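Single probes and dim spots limit most of these values: 42 of the 50 receptor genes in the fit rest on 1 probe, and 2 or 3 K562 arrays stand against 4 of U2OS. Over the alternatives run, 177 summary values stayed within 1.5 times (counts) or within the spread (medians), 42 moved beyond that and 11 reversed in sign. Of the differences of named genes, 312 kept their side of the threshold (19 of these changed sign without being called), 12 passed it and 5 no longer did, and none changed sign while called. The cause of these moves was not tested. The slide as a random block was not run, since 1 slide held 2 arrays and no correlation could be estimated. Averaging those 2 arrays was added after seeing the data.

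The K562 median of receptor genes (0.30) was 0.080 with normexp at offset 50, 0.18 at offset 0, 0.12 with loess, 0.49 with mean centring, 0.17 for genes on all 7 arrays, 0.44 with all probes within 50 kb, 0.054 with normexp 50 and equal spread of arrays, and turned to -0.16 with at least 2 probes per gene. That last choice leaves 8 receptor genes: U2OS median -1.18, 3 late and 1 early in K562, 7 late and 1 early in U2OS, 2 earlier and 1 later in K562. The median K562 minus U2OS difference (0.81) was 0.25 with normexp 50, 0.55 at offset 0, 0.34 with loess, 0.19 for genes on all 7 arrays and 0.25 with normexp 50 and equal spread. Genes on all 7 arrays (28 receptor genes tested) gave 7 early in K562, 11 late in U2OS and 4 earlier in K562. Offset 0 gave 5 later in K562. All probes within 50 kb gave 14 late (22.8% of all genes under that setting) and 23 early (59.5%) in K562. That setting also gave 17 earlier and 7 later in K562. For the other counts of calls in this paragraph, no share of all genes under the same setting is given. They are therefore not set against a background. Without surrogate spots 2 clusters were below 0 on every array with a value, in place of 4.

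Between automated and manual U2OS, 9 receptor genes passed with normexp 50 (10.1% of all genes), 9 with loess (9.89%) and 12 with all probes within 50 kb (4.71%). A replicate block gave 0 such genes, as without it (14 at an unadjusted p under 0.05, beside 4296 of all 23745 genes). The correlation of manual 1 minus 2 with automated 1 minus 2 over genes was 0.011. No label says that the numbers pair arrays, and this value cannot decide it, since spot noise can also lower it.

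The medians of single K562 arrays had no stable sign. New minus old sorting (0.12) was 0.37 with normexp 50, -0.0020 with loess, -0.33 without dim spots, 0.47 with mean centring, -0.029 with equal spread, -0.34 with at least 2 probes, 0.17 for genes on all 7 arrays, 0.36 without surrogate spots and -0.063 with all probes within 50 kb. The 44k array minus new sorting (0.09) was -0.10 with normexp 50, -0.13 at offset 0, -0.10 with loess, 0.23 without dim spots, -0.31 with mean centring, 0.015 with equal spread, 0.66 with at least 2 probes, 0.96 without surrogate spots, 0.34 with all probes within 50 kb and -0.10 with normexp 50 and equal spread.

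Leaving out each array in turn gave 5 to 12 receptor genes earlier and 3 to 4 later in K562, 8 to 13 early and 8 to 11 late in K562, 10 to 11 early and 18 to 22 late in U2OS, medians of 0.26 to 0.36 in K562 and -0.53 to -0.31 in U2OS, a median difference of 0.64 to 0.86, and 0 calls between automated and manual. No share of all genes is given for these counts, so they only describe the members.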
